A study of Homo sapiens with 12 samples.

Results

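The genes described here build cholesterol and fatty acids in the cell, together with 4 genes that control this supply or carry sterols. They were chosen by name, as 29 targets of the sterol regulatory element-binding proteins, by a rule that uses no measured value but was set with earlier results of these data known. Of the 29, 28 matched 1 row each of the table of 63568 rows, and all 28 were among the 25249 genes that passed the filter on low counts. ACACA, which encodes acetyl-CoA carboxylase 1, matched no row through the gene name tables used here, so its expression was not analysed here.

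Total RNA was sequenced from 12 samples of MDA-MB-231, a triple negative breast cancer line that lacks estrogen and progesterone receptors, in 6 conditions with 2 biological replicates each. The cells carry a GFP label in their nuclei, are labelled wild type, and were grown inside Matrigel, a basement membrane extract, in medium with fetal bovine serum according to the methods. C1 was untreated and taken on day 2, C2 was untreated and taken on day 4, and the other groups received 0.0005, 0.005, 0.05 or 0.5 μM Paclitaxel on day 2, as the labels give it, and were taken on day 4. The methods give a later day of dosing for the imaged cultures. Paclitaxel is a taxane that stabilises microtubules. The labels name no vehicle for the untreated groups, and all samples come from 1 line, so the drug and its solvent cannot be told apart here and the replicates measure the spread between cultures of that line.

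The samples held between 38380629 and 79169121 counts, and every matched gene had at least 585 counts in every sample, so counting error was small beside the spread between samples. C1 replicate 2 stood apart, with the fewest counts and a mitochondrial share of 7.74%, against 3.73% to 6.18% in the other 11 samples. The log2 levels of genes also tilted with their exon GC content. This slope per 10 points of GC was 0.170 in C1 replicate 1 and -0.198 in C1 replicate 2, against -0.0849 to 0.111 in the rest. Its part in the results for single genes was not tested, apart from fits that adjust for GC and length. The 5 genes expected to be high in the line (VIM, CD44, KRT18, S100A4 and AXL) summed to 1501 to 2493 CPM (counts scaled to a common library size) in untreated and 1543 to 2143 in treated samples, while ESR1, PGR, EPCAM and CDH1 summed to at most 6.07 CPM. Markers of immune cells summed to 0.391 to 0.650 CPM in untreated and 0.960 to 1.80 in treated samples, ranges that did not overlap, and CD14 (0.391 to 1.71 CPM over all samples) made up most of the sum, while PTPRC and CD3E stayed at or under 0.283 CPM. Markers of fibroblasts summed to 7.43 to 15.2 CPM in untreated and 10.8 to 20.8 in treated samples, nearly all of it COL1A1 (4.19 to 10.7 CPM over all samples, with a mean of 6.28 in C2 and 8.39 at 0.5 μM) and PDGFRB (3.15 to 9.52, with means of 7.04 and 4.66), while COL1A2 and DCN stayed at or under 0.150. The adipocyte list also differed, with overlapping ranges, at 2.51 to 10.1 CPM in untreated and 2.00 to 3.76 in treated samples, mostly through FABP4 (1.61 to 9.59 CPM over all samples), while ADIPOQ and LEP stayed at or under 0.0388 CPM. The part of these markers in the results below was not tested. In bulk RNA, fewer cells of a type and less RNA per cell cannot be told apart.

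Cholesterol is made from acetyl-CoA through mevalonate, farnesyl diphosphate, squalene and lanosterol, and fatty acids are made from the same acetyl-CoA by carboxylation, chain building, elongation and desaturation. When the membranes of the endoplasmic reticulum are low in sterol, the protein SCAP escorts the precursor proteins SREBP1 and SREBP2 to the Golgi, where the proteases encoded by MBTPS1 and MBTPS2 release their active parts. When sterol is abundant, INSIG proteins hold SCAP back. The active parts bind sterol response elements in promoters, usually next to sites for NF-Y and Sp1, so that the whole set of enzymes tends to be made together. Breast cancer cells can take cholesterol and fatty acids up from serum or make them, and rapidly dividing cells need both for new membranes.

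Promoter sequences show what the regulators of this set could read. RefSeq windows of 300 bases, from 250 before to 50 after a transcription start, were found for 25 of the 29 genes, ACACA among them (34 windows, GRCh38.p14, a newer build than the GRCh37 of the counts). SQLE, FDFT1, ACAT2 and FASN have no window in that table. The windows below belong to HMGCS1, INSIG1 and STARD4, whose values against C2 were the lowest at 0.05 μM, and to the pair of regulator genes, SREBF2 and SREBF1. Capitals mark matches on either strand to the NF-Y box CCAAT, to the sterol response element TCACNCCAC and to the E-box TCACNTGA.
HMGCS1, chr5:43313363-43313662, minus strand: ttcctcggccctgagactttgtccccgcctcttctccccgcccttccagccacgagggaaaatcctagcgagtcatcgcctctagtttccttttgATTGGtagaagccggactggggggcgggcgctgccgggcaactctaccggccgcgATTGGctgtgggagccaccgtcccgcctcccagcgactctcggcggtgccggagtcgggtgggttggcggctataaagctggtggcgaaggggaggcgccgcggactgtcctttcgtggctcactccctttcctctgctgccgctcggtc
INSIG1, chr7:155297628-155297927, plus strand: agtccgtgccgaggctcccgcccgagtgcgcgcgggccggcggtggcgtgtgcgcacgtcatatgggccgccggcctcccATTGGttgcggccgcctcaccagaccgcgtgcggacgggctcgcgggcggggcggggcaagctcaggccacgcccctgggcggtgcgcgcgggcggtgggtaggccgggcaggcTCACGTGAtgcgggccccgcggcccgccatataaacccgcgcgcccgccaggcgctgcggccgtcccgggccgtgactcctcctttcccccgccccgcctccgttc
STARD4, chr5:111512486-111512785, minus strand: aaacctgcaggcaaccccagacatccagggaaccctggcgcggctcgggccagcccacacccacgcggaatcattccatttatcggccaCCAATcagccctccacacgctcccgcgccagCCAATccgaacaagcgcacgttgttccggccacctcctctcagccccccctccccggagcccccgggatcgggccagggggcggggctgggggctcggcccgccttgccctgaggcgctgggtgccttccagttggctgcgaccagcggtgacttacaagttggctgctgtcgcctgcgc
SREBF2, chr22:41832855-41833154, plus strand: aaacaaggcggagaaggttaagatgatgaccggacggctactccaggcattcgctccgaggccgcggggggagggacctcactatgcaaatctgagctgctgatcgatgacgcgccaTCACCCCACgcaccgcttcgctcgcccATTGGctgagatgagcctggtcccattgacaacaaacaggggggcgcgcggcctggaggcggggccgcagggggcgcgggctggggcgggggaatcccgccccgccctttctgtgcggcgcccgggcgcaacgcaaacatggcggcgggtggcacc
SREBF1, chr17:17836937-17837236, minus strand: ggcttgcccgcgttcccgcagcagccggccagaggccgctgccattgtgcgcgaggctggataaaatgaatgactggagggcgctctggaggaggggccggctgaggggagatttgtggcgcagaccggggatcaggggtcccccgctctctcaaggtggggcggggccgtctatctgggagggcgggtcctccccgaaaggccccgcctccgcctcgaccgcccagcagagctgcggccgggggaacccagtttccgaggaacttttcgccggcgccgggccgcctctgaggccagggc

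The windows shown of HMGCS1 and STARD4 each held 2 NF-Y boxes, and those of INSIG1 and SREBF2 held 1. That of SREBF1 held none, nor did the other window of HMGCS1 in the table. Over all windows, CCAAT stood in 24 of 34 windows of the set (70.6%), against 34.6% of the 35116 windows in the table, and in 20 of the 25 genes, against 42.1% of 13291 tested genes with a window. The Sp1 box GGGCGG stood in 30 of 34 windows (88.2%), against 45% of all windows and 61.4% of windows of tested genes. Both boxes stood together in 22 of 34 windows (64.7%), against 14.4% of all windows and 20.5% of those of tested genes. TCACNCCAC was found in SREBF2 alone, in a table where 1.13% of windows hold it, and TCACNTGA in INSIG1 and EBP, where 3.79% hold it. The motifs are short, the windows are rich in G and C (65.7% in that of HMGCS1 shown), and some genes have several overlapping windows, so these shares are a description and no binding was measured.

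The question put to the set was how its expression in cells taken on day 4 differed with the dose of Paclitaxel. The median log2 fold change of the 28 genes relative to C2 moved from -0.29 at the lowest dose and -0.50 at 0.005 μM to -0.71 at 0.05 μM and -0.73 at the highest, while the median of all tested genes lay between -0.01 and 0.04 and that of the 8914 genes at least as abundant as the least abundant member between -0.13 and -0.03. HMGCS1 was the furthest from C2 at the lowest, the 0.05 μM and the 0.5 μM dose, and at 0.05 μM it fell by 62.3% in mean CPM. PMVK, NSDHL and SREBF1 did not pass the test in any of the 7 comparisons made.

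**Figure D1:**
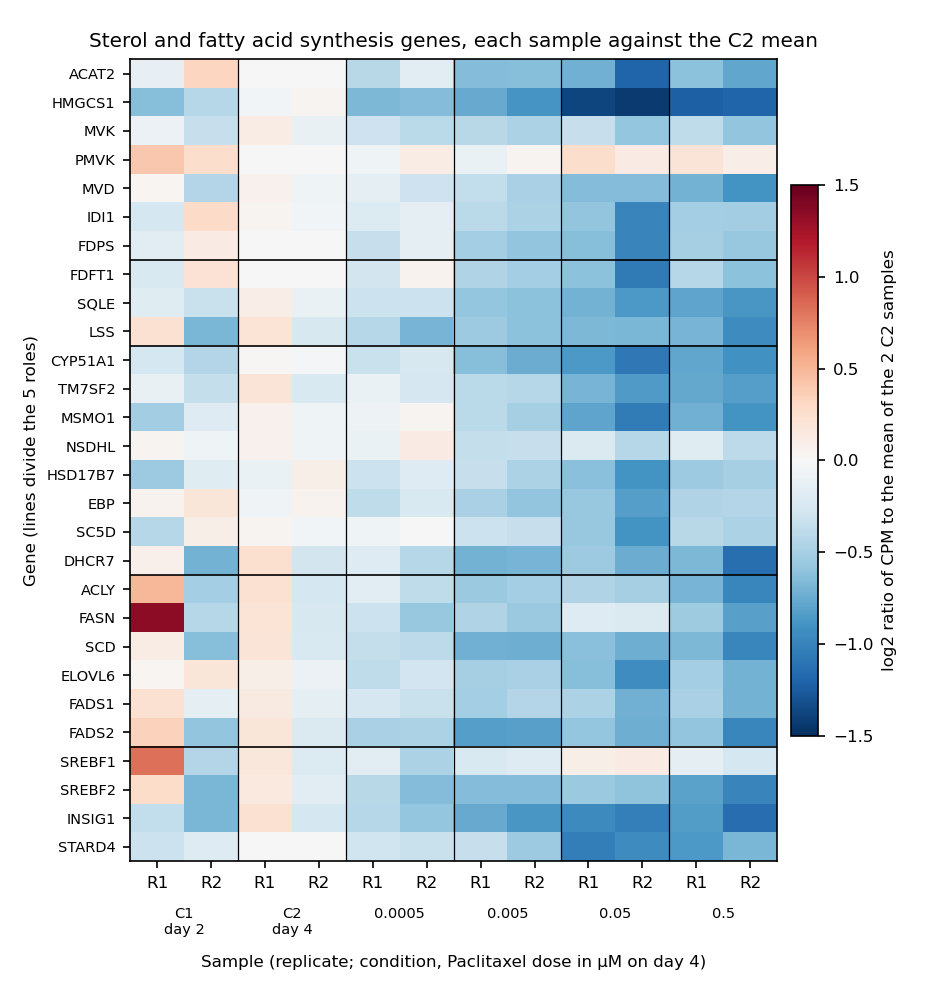
Expression of the 28 genes (rows, in the order of the pathways, with lines between roles) in each of the 12 samples (columns), as the log2 ratio of CPM to the mean of the 2 C2 samples. Blue cells, below C2, fill most of the columns at 0.05 and 0.5 μM, where the median log2 fold changes were -0.71 and -0.73. PMVK and SREBF1 stay pale at these doses, and FASN and SREBF1 are high in C1 replicate 1.

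Calls were made with edgeR's quasi-likelihood test at a Benjamini-Hochberg adjusted p under 0.05 over all tested genes. At 0.0005 μM 1 of 28 genes was called lower (HMGCS1), against 0.479% of all tested genes. At 0.005 μM 4 were called lower (HMGCS1, INSIG1, SQLE and CYP51A1), against 0.776% of all. At 0.05 μM 16 were called lower, against 3.23% of all, and at 0.5 μM 10 were, against 1.96% of all. None was called higher at any dose. From the lowest to the highest dose 26, 28, 26 and 27 genes had fold changes below 0, against 51.1%, 46.8%, 51.0% and 47.0% of all. Among the 8914 genes with a mean of at least 17.4 CPM, the lowest in the set, 0.639%, 1.53%, 5.86% and 3.49% were called lower. Of these abundant genes 54.6%, 71.1%, 66.4% and 64.8% had fold changes below 0. The 4 comparisons share the 2 C2 samples.

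These counts changed when single samples were left out. Leaving out a C2 or a dose sample leaves 1 sample on that side, which is then assumed to vary like the other groups, and it lowers the number of replicates as well. Without C2 replicate 1 the calls numbered 0, 0, 3 and 1 from the lowest to the highest dose, against 0.0372%, 0.0186%, 0.208% and 0.0856% of all genes tested in that fit. Without C2 replicate 2 they numbered 0, 1, 8 and 7, against 0.127%, 0.235%, 1.16% and 0.683% of all. Without Pac0.05 replicate 2 the count at 0.05 μM was 3 (0.287% of all). At 0.5 μM it was 1 without Pac0.5 replicate 2 (0.0756% of all) and 5 without Pac0.5 replicate 1 (0.235%). At 0.005 μM it was 0 without either Pac0.005 sample (0.0226% and 0.0187% of all) and 2 without either Pac0.0005 sample (0.359% and 0.350%). At 0.0005 μM it was 0 without any 1 of the samples of that dose (0.0411% and 0.0149%) or of 0.005 μM (0.188% and 0.184%). With the replicate number as a block the count at 0.5 μM was 18, against 2.67% of all. Without C1 replicate 1 the counts rose to 5, 24, 24 and 25, against 4.29%, 6.40%, 9.16% and 9.80% of all. Without C1 replicate 2 they rose to 4, 24, 24 and 25, against 4.25%, 5.96%, 8.60% and 10.2%. C1 is in neither arm of these comparisons, but it enters the fit and the filter, which left 26785 and 26797 genes to test without these samples. Leaving out any other single sample left 26449 to 26880 genes. Over all alternatives the medians ran from -0.40 to -0.15 at the lowest dose, from -0.60 to -0.38 at 0.005 μM, from -0.84 to -0.56 at 0.05 μM and from -0.83 to -0.54 at the highest. With C1 alone as the control, chosen after seeing the data, the medians were -0.15, -0.43, -0.56 and -0.56, and the called genes numbered 0, 4, 14 and 12, against 2.86%, 4.71%, 6.66% and 4.10% of all genes.

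Whether the samples themselves overlapped can be read without a model. Both samples lay below both C2 samples for 19 of 28 genes at 0.0005 μM (25.9% of all tested genes), for 26 at 0.005 μM (29.3%), for 25 at 0.05 μM (26.9%) and for 26 at 0.5 μM (27.3%). All 8 treated samples lay below both C2 samples for 18 genes, against 11.3% of all. All 8 lay below all 4 untreated samples for 5 genes, HMGCS1, FADS1, ACAT2, ELOVL6 and EBP, against 5.77% of all. The summed CPM of the 28 genes was 5075 and 3812 in C1 and 5074 and 4278 in C2, and over the doses in rising order it was 3739 and 3707, 3151 and 3060, 3017 and 2704, and 2983 and 2600. No treated sample reached the lowest untreated one in this sum.

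The first branch, from acetyl-CoA to farnesyl diphosphate, has 7 of the genes. At 0.05 μM 5 of the 7 were called lower, at a median of -0.78 on the log2 scale, and at 0.5 μM 3 were, with a median of -0.54. At each of these doses 6 of the 7 had a log2 fold change below 0. At 0.005 and 0.0005 μM the called gene was HMGCS1, and in the comparison of all treated with all untreated samples 6 of 7 were called lower. Of these calls that of MVD was lost under 4 of 20 alternatives, among them GC and length offsets (-0.26, adjusted p = 0.110). Those of IDI1 and MVK were each lost under 2. HMGCS1 (ENSG00000112972, chromosome 5, 43287572 to 43313614, minus strand, GRCh37) encodes HMG-CoA synthase, which makes the precursor of mevalonate. The level of HMGCS1 was 269 and 311 CPM in C1, 405 and 430 in C2, and then, from the lowest to the highest dose, 262 and 265, 247 and 226, 161 and 154, and 178 and 181. Its 8 treated samples lay below all 4 untreated ones, and C2 lay above C1. Its log2 fold change relative to C2 was -0.66 ± 0.13, adjusted p = 0.0232 at the lowest dose and -0.82 ± 0.14, adjusted p = 0.00750 at 0.005 μM. It reached -1.41 ± 0.14, adjusted p = 0.000148 at 0.05 μM and -1.22 ± 0.14, adjusted p = 0.000667 at the highest dose. The calls at 0.05 and 0.5 μM held under all 22 alternatives, with adjusted p-values up to 0.00313 and 0.0152. Those at the lower doses were lost without either C2 sample (adjusted p = 0.124 and 0.165 at 0.0005 μM) and with C1 alone as the control (adjusted p = 0.580 and 0.156).

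ACAT2 (cytosolic acetyl-CoA acetyltransferase) joins acetyl-CoA units at the start of the branch. The level of ACAT2 was 115 and 156 CPM in C1, 124 and 126 in C2, and then, from the lowest to the highest dose, 94 and 112, 79.4 and 80.0, 76.1 and 54.3, and 81.5 and 72.9. Replicate 2 at 0.05 μM was the lowest sample and the treated and untreated ranges did not overlap, with -0.94 ± 0.19, adjusted p = 0.0118 at 0.05 μM and -0.70 ± 0.19, adjusted p = 0.0489 at 0.5 μM. MVD, which removes a carboxyl group from mevalonate diphosphate, was lowest at 0.5 μM. The level of MVD was 58 and 41.7 CPM in C1, 59.3 and 54.2 in C2, and then, from the lowest to the highest dose, 51.6 and 45.7, 44 and 40.5, 36.3 and 36.2, and 34.8 and 30.6. It was called at 0.05 μM (-0.65 ± 0.17, adjusted p = 0.0331) and at 0.5 μM (-0.80 ± 0.17, adjusted p = 0.0183). IDI1, the isomerase of isopentenyl diphosphate, had 154 and 225 CPM in C1, 190 and 180 in C2, and then, from the lowest to the highest dose, 160 and 169, 140 and 133, 123 and 93.5, and 130 and 129. The change at 0.05 μM was -0.78 ± 0.18, adjusted p = 0.0239, and at 0.5 μM it was not called (-0.52 ± 0.18, adjusted p = 0.117). FDPS, which joins isoprene units into farnesyl diphosphate, had 134 and 164 CPM in C1, 149 and 151 in C2, and then, from the lowest to the highest dose, 118 and 137, 105 and 99.6, 96.3 and 75.3, and 106 and 101. It was called at 0.05 μM (-0.81 ± 0.16, adjusted p = 0.0106) and not at 0.5 μM (-0.54 ± 0.16, adjusted p = 0.0666). At 0.05 μM the calls of ACAT2, MVD, IDI1 and FDPS were all lost without either C2 sample or without Pac0.05 replicate 2, and that of MVD also without any other treated sample. At 0.5 μM those of ACAT2 and MVD were lost without any 1 of the C2 or Pac0.5 samples, and that of ACAT2 also without any 1 of the samples at 0.0005 or 0.005 μM (adjusted p = 0.0697 to 0.0867) and with the filter on a mean count (adjusted p = 0.0549).

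Neither kinase of the branch was called at any dose. MVK, mevalonate kinase, had 49.1 and 40.9 CPM in C1, 56.1 and 48 in C2, and then, from the lowest to the highest dose, 42 and 39.4, 39.1 and 37.5, 40.8 and 34.7, and 39.9 and 34.5. None of its dose comparisons was called, with -0.48 ± 0.15, adjusted p = 0.0843 at 0.5 μM, although the treated samples against all untreated ones were (-0.33 ± 0.09, adjusted p = 0.0158). That call was lost with GC and length offsets (-0.16, adjusted p = 0.223) and without C2 replicate 1 (-0.26, adjusted p = 0.0796). PMVK, phosphomevalonate kinase, ranged from 18.0 to 23.1 CPM in treated and from 19.3 to 25.5 in untreated samples. Its log2 fold change was 0.20 ± 0.14, adjusted p = 0.433 at 0.05 μM and 0.15 ± 0.14, adjusted p = 0.550 at 0.5 μM, so it was the member with the highest value at these doses.

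Squalene is made and closed into lanosterol by FDFT1, SQLE and LSS. All 3 had log2 fold changes below 0 at every dose, with medians of -0.32, -0.58, -0.78 and -0.81. When treated samples were set against untreated ones all 3 were called lower. That call of FDFT1 was lost under 8 of 20 alternatives, among them GC and length offsets (-0.38, adjusted p = 0.0799). SQLE, squalene epoxidase, is a control point of the pathway. The level of SQLE was 43 and 38.7 CPM in C1, 52.2 and 45.5 in C2, and then, from the lowest to the highest dose, 39.1 and 39, 32.8 and 31.8, 30.0 and 26.8, and 28.3 and 26.6. The values stepped down over the doses, from -0.60 ± 0.13, adjusted p = 0.0341 at 0.005 μM to -0.78 ± 0.14, adjusted p = 0.00563 at 0.05 μM and -0.83 ± 0.14, adjusted p = 0.00549 at 0.5 μM. FDFT1, squalene synthase, had 243 and 333 CPM in C1, 287 and 284 in C2, and then, from the lowest to the highest dose, 236 and 297, 209 and 200, 187 and 137, and 213 and 187. Its replicate 2 at 0.05 μM was the lowest sample, and it was called at that dose only (-0.82 ± 0.20, adjusted p = 0.0253, an adjusted p of 0.161 without that sample, and no call without either C2 sample). LSS, lanosterol synthase, had 150 and 80.2 CPM in C1, 148 and 109 in C2, and then, from the lowest to the highest dose, 95.9 and 79, 88.1 and 84.1, 80.4 and 80.1, and 79.2 and 66.8. C1 replicate 2 lay among the treated samples, and no dose was called (-0.81 ± 0.25, adjusted p = 0.0754 at 0.5 μM). The SQLE calls at 0.05 and 0.5 μM were lost without C2 replicate 1 (-0.68 and -0.73) or without replicate 2 of the dose. That at 0.005 μM was lost under 9 of 22 alternatives, over which the log2 fold change ran from -0.70 to -0.34.

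From lanosterol to cholesterol 8 of the genes act. At 0.05 μM 6 of 8 were called lower, at 0.5 μM 3, at 0.005 μM 1 and at 0.0005 μM none. In the same order the medians were -0.74, -0.66, -0.43 and -0.22, and 8, 8, 8 and 7 genes had log2 fold changes below 0. CYP51A1 (ENSG00000001630, chromosome 7, 91714301 to 91764117, minus strand, GRCh37) removes a methyl group from lanosterol. The level of CYP51A1 was 30.7 and 27.2 CPM in C1, 37.4 and 36.2 in C2, and then, from the lowest to the highest dose, 29.3 and 31.1, 23.6 and 21.9, 20.3 and 17.5, and 21.5 and 19.6. All treated samples lay below both C2 samples. It was called at 0.005 μM (-0.69 ± 0.14, adjusted p = 0.0195), at 0.05 μM (-0.96 ± 0.14, adjusted p = 0.00217) and at 0.5 μM (-0.84 ± 0.14, adjusted p = 0.00583). The call at 0.05 μM held under all 22 alternatives. MSMO1, the methylsterol monooxygenase, had 187 and 234 CPM in C1, 280 and 256 in C2, and then, from the lowest to the highest dose, 254 and 275, 202 and 189, 155 and 130, and 163 and 144. It lay near C2 at the lowest dose (-0.02 ± 0.16, adjusted p = 0.965) and had the steepest slope of the set over the doses. TM7SF2, a sterol reductase and the least abundant of the 28 genes, had 20.7 and 17.5 CPM in C1, 25.7 and 19.2 in C2, and then, from the lowest to the highest dose, 20.9 and 18.9, 17 and 16.7, 13.8 and 12.5, and 13.2 and 12.7. Both MSMO1 and TM7SF2 were called at 0.05 μM (-0.91 ± 0.16, adjusted p = 0.00564 and -0.77 ± 0.16, adjusted p = 0.0147) and at 0.5 μM (-0.80 ± 0.16, adjusted p = 0.0137 and -0.79 ± 0.16, adjusted p = 0.0174).

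A group of later enzymes passed the test at 0.05 μM but not at 0.5 μM, and this difference between the doses was not tested. HSD17B7, a sterol ketoreductase, had 28.8 and 37 CPM in C1, 39.4 and 44.8 in C2, and then, from the lowest to the highest dose, 33.8 and 36.8, 33.2 and 30.4, 27.3 and 22.6, and 28.9 and 29.9. EBP, the sterol isomerase, had 26.3 and 28.9 CPM in C1, 24.6 and 26.3 in C2, and then, from the lowest to the highest dose, 19.6 and 21.8, 18.1 and 16.9, 17.1 and 14.4, and 18.6 and 18.8. SC5D, the sterol desaturase, had 71.3 and 102 CPM in C1, 98.9 and 93 in C2, and then, from the lowest to the highest dose, 92 and 96, 77 and 75.2, 64.5 and 51.4, and 71.8 and 68.8. Their values at 0.05 μM were -0.76 ± 0.16, adjusted p = 0.0147 for HSD17B7, -0.69 ± 0.14, adjusted p = 0.0123 for EBP and -0.73 ± 0.17, adjusted p = 0.0242 for SC5D. Replicate 2 was below replicate 1 at that dose in all 3. At 0.5 μM they were -0.52 ± 0.16, adjusted p = 0.0764, -0.45 ± 0.14, adjusted p = 0.0828 and -0.45 ± 0.17, adjusted p = 0.146 in the same order. DHCR7, the reductase that yields cholesterol, had 146 and 84.4 CPM in C1, 163 and 114 in C2, and then, from the lowest to the highest dose, 121 and 103, 84.9 and 85.5, 95.1 and 82.6, and 86.8 and 63.2. It was not called at any dose (-0.88 ± 0.25, adjusted p = 0.0608 at 0.5 μM) but was in treated against untreated samples (-0.49 ± 0.16, adjusted p = 0.0349). That call was lost under 8 of 20 alternatives, among them GC and length offsets (-0.31, adjusted p = 0.0753) and leaving out C2 replicate 1 (-0.35, adjusted p = 0.158). NSDHL, a sterol dehydrogenase, ranged from 36.4 to 53.6 CPM in treated and from 46.8 to 51.2 in untreated samples and was not called in any comparison. Without C2 replicate 1 or without Pac0.05 replicate 2, CYP51A1 alone of these 8 genes was called at 0.05 μM, and the calls at 0.5 μM were lost without C2 replicate 1 or Pac0.5 replicate 2.

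**Figure D2:**
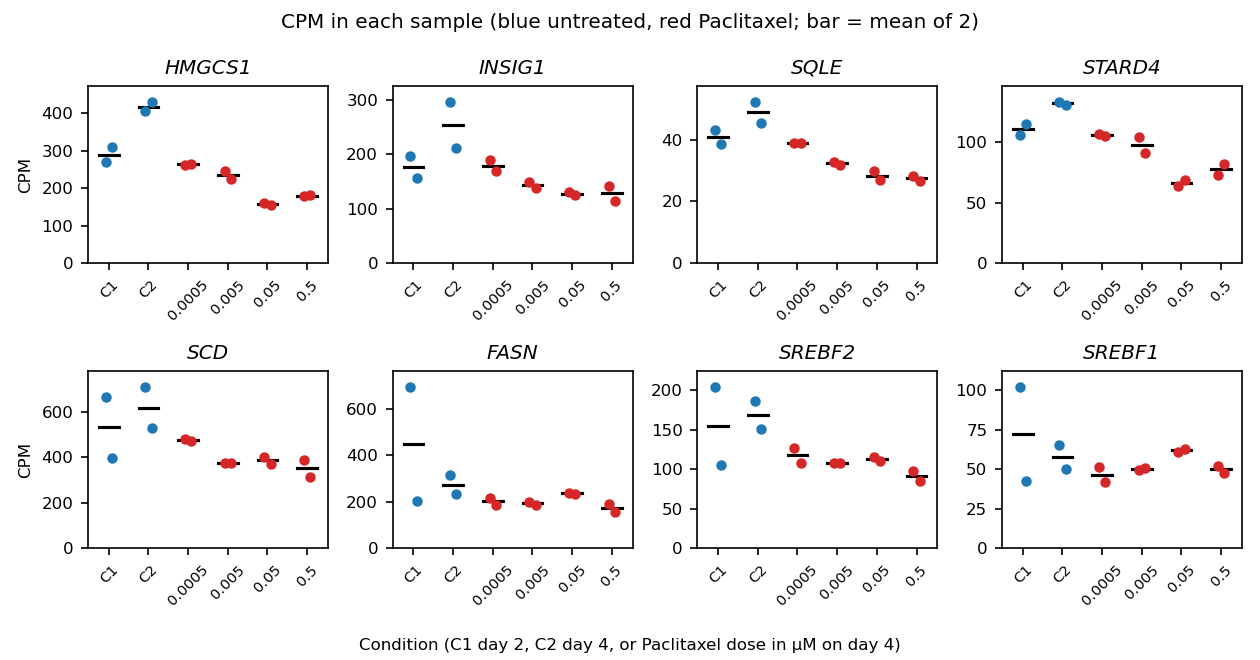
CPM (vertical axis, from 0) of 8 genes in every sample, by condition (C1, C2 and the Paclitaxel dose in μM), with blue points for untreated samples, red points for treated samples and a bar at the mean of 2. HMGCS1 drops from 405 and 430 CPM in C2 to 161 and 154 at 0.05 μM, FASN and SREBF1 have a single high sample in C1, and SREBF1 was called in no comparison.

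Among the fatty acid genes 6 were measured, and ELOVL6 was the 1 called against C2, at 0.05 and 0.5 μM. All 6 had log2 fold changes below 0 at every dose, with medians of -0.35, -0.52, -0.62 and -0.72. In treated against untreated samples all 6 were called lower. ELOVL6, which lengthens fatty acids of intermediate length, had 103 and 114 CPM in C1, 107 and 94.5 in C2, and then, from the lowest to the highest dose, 77.6 and 82.9, 71.4 and 71.9, 64.8 and 52.8, and 70.6 and 61.4. The ranges of treated and untreated samples did not overlap, with -0.78 ± 0.15, adjusted p = 0.00896 at 0.05 μM and -0.61 ± 0.15, adjusted p = 0.0328 at 0.5 μM. The call at 0.05 μM was lost without C2 replicate 1 (adjusted p = 0.107) or Pac0.05 replicate 2 (0.0874), and that at 0.5 μM without any 1 of the samples of C2, 0.0005, 0.005 or 0.5 μM.

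SCD, the desaturase that makes monounsaturated fatty acids, was the most abundant of the 28 genes per length of exon, at 86.9 CPM per kb on average. The level of SCD was 665 and 397 CPM in C1, 708 and 528 in C2, and then, from the lowest to the highest dose, 482 and 472, 374 and 373, 400 and 371, and 388 and 314. Both C2 samples lay above all treated samples, but the C2 samples differed from each other by more than any pair of treated samples, and the change at 0.5 μM was -0.82 ± 0.23, adjusted p = 0.0543. ACLY, which supplies cytosolic acetyl-CoA from citrate, had 520 and 257 CPM in C1, 429 and 305 in C2, and then, from the lowest to the highest dose, 325 and 282, 249 and 258, 268 and 259, and 227 and 186. Its value at 0.5 μM was -0.83 ± 0.27, adjusted p = 0.0944. FASN, fatty acid synthase, had 692 and 203 CPM in C1, 313 and 231 in C2, and then, from the lowest to the highest dose, 217 and 184, 199 and 185, 237 and 234, and 188 and 155. C1 replicate 1 lay far above every other sample, and the values at 0.05 μM lay within the range of C2 (-0.21 ± 0.39, adjusted p = 0.805). FASN was called in treated against untreated samples (-0.85 ± 0.23, adjusted p = 0.0142), and this call rested on C1 replicate 1: without it the log2 fold change was -0.32 with an adjusted p of 0.135. The calls of SCD and ACLY there were also lost without C1 replicate 1 (-0.46, adjusted p = 0.0530, and -0.37, adjusted p = 0.122) and without C2 replicate 1 (-0.42, adjusted p = 0.0651, and -0.50, adjusted p = 0.0676), against -0.53 for SCD and -0.56 for ACLY with all samples.

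FADS1 and FADS2 insert double bonds into polyunsaturated fatty acids and lie next to each other on chromosome 11, where 4.8% of the exon bases of FADS1 overlap FADS2 on the opposite strand. FADS1 had 288 and 223 CPM in C1, 268 and 222 in C2, and then, from the lowest to the highest dose, 206 and 195, 172 and 180, 177 and 149, and 175 and 150. FADS2 had 399 and 208 CPM in C1, 358 and 271 in C2, and then, from the lowest to the highest dose, 225 and 227, 178 and 179, 210 and 190, and 209 and 159. In both genes all treated samples lay below both C2 samples. Against C2 neither was called, with -0.59 ± 0.17, adjusted p = 0.0514 for FADS1 at 0.05 μM and -0.82 ± 0.26, adjusted p = 0.107 for FADS2 at 0.005 μM, its lowest. Both were called in treated against untreated samples (-0.51 ± 0.11, adjusted p = 0.00306 and -0.65 ± 0.15, adjusted p = 0.00424) under all 20 alternatives.

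The last role is control and transport, with 4 genes. INSIG1 and STARD4 were called at 0.05 and 0.5 μM, SREBF2 in treated against untreated samples alone, and SREBF1 in no comparison. INSIG1 (ENSG00000186480, chromosome 7, 155089486 to 155101945, plus strand, GRCh37) is the sensor that holds SCAP back, and is itself an SREBP target. The level of INSIG1 was 197 and 157 CPM in C1, 296 and 211 in C2, and then, from the lowest to the highest dose, 189 and 169, 150 and 138, 131 and 125, and 142 and 115. All treated samples lay below both C2 samples, which differed from each other by more than the treated samples of any dose did. The change was -0.81 ± 0.18, adjusted p = 0.0346 at 0.005 μM, -0.99 ± 0.18, adjusted p = 0.00856 at 0.05 μM and -0.98 ± 0.18, adjusted p = 0.0115 at 0.5 μM, and each call was lost without C2 replicate 1, the higher of the pair (adjusted p = 0.358, 0.112 and 0.158). With C1 alone as the control, at 197 and 157 CPM, the log2 fold changes were -0.30, -0.47 and -0.46 and none was called. STARD4, a protein that carries cholesterol between membranes, had 106 and 115 CPM in C1, 133 and 131 in C2, and then, from the lowest to the highest dose, 107 and 105, 104 and 90.6, 64.1 and 68.4, and 72.7 and 82.2. Its replicates lay close together, and the largest step came between 0.005 and 0.05 μM. It was called at 0.05 μM (-1.0 ± 0.13, adjusted p = 0.00149) under all 22 alternatives, and at 0.5 μM (-0.77 ± 0.13, adjusted p = 0.00721) except without C2 replicate 1 or either Pac0.5 sample.

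The genes of the transcription factors differed from each other in their values. SREBF2, which encodes the factor mainly tied to sterol genes, had 204 and 105 CPM in C1, 187 and 151 in C2, and then, from the lowest to the highest dose, 127 and 108, 108 and 108, 115 and 111, and 97.2 and 84.8. All treated samples lay below both C2 samples, as did C1 replicate 2 at 105 CPM. The change at 0.5 μM was -0.89 ± 0.24, adjusted p = 0.0511, and in treated against untreated samples -0.59 ± 0.14, adjusted p = 0.00650. SREBF1, which encodes the factor mainly tied to fatty acid genes, had 102 and 42.5 CPM in C1, 65.1 and 50.2 in C2, and then, from the lowest to the highest dose, 51.6 and 41.6, 49.3 and 50.5, 61.2 and 62.6, and 52 and 47.9. Its values at 0.05 μM lay inside the range of C2 (0.10 ± 0.29, adjusted p = 0.879), and C1 replicate 1 was the highest sample. Whether the change of SREBF1 differed from that of SREBF2 was not tested.

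**Figure D3:**
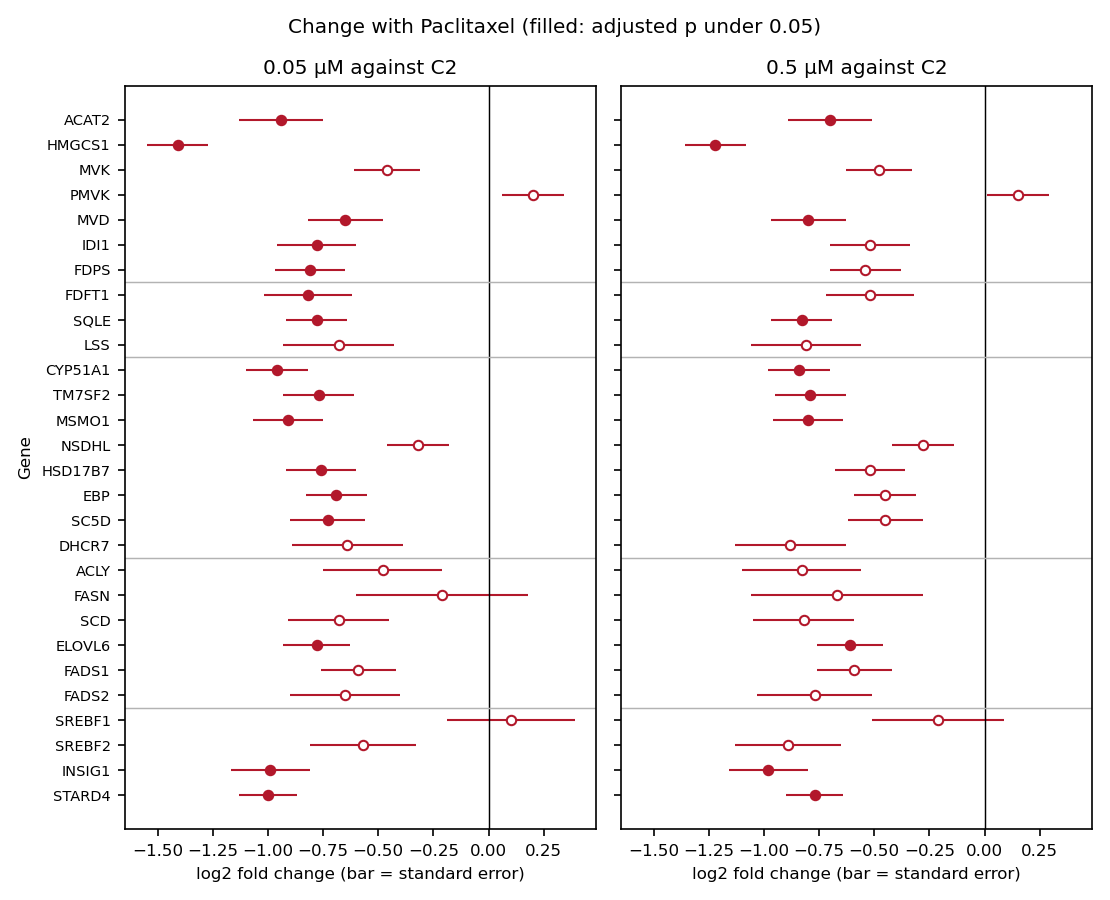
Log2 fold change against C2 (horizontal axis, bar for 1 standard error) of each of the 28 genes at 0.05 μM (left) and 0.5 μM (right), filled where the adjusted p was under 0.05. HMGCS1 lies furthest left in both panels, at -1.41 and -1.22, and PMVK lies to the right of 0 in both, unfilled.

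The order of the doses was described from mean log2 CPM. From C2 to 0.05 μM 19 of 28 genes were lower at every step, a pattern that 8.43% of all tested genes had, and 6 were lower at every step up to 0.5 μM, against 2.12% of all. The lowest mean among C2 and the 4 doses stood at 0.05 μM for 13 genes (21.0% of all tested genes). It stood at 0.5 μM for 11 (16.8%), at 0.005 μM for 3 (11.1%), at 0.0005 μM for 1 (21.1%) and in C2 for 0 (29.9%). Among the treated samples alone, which share no control with the comparisons above, a slope on log10 dose was called lower for 6 genes, against 2.04% of all. These were MSMO1 (-0.28 ± 0.05, adjusted p = 0.0104 per 10-fold dose), HMGCS1 (-0.22 ± 0.05, adjusted p = 0.0314), TM7SF2 (-0.22 ± 0.04, adjusted p = 0.00724), MVD (-0.19 ± 0.04, adjusted p = 0.00907), CYP51A1 (-0.19 ± 0.05, adjusted p = 0.0370) and SQLE (-0.17 ± 0.04, adjusted p = 0.0181). With the replicate number as a block those of HMGCS1 (adjusted p = 0.0603) and CYP51A1 (adjusted p = 0.0619) were not called. The median slope of the set was -0.13, and 26 of 28 slopes were below 0, against 47.7% of all tested genes and 64.4% of the 8914 abundant ones. Without Pac0.0005 replicate 1 no slope was called (0.389% of all genes were lower), without Pac0.0005 replicate 2 or Pac0.5 replicate 2 the count was 2 (0.752% and 0.688% of all), and without Pac0.05 replicate 2 it was 10 (2.73%).

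Treated and untreated samples were also compared as whole groups, 8 against 4, with both days among the untreated. Of the 28 genes 22 were called lower, against 11.3% of all tested genes and 21.7% of the 8914 abundant ones, and the median log2 fold change was -0.50. The 6 that were not called were PMVK, MSMO1, NSDHL, HSD17B7, SC5D and SREBF1. HMGCS1 had -0.76 ± 0.16, adjusted p = 0.00327, ACAT2 -0.68 ± 0.14, adjusted p = 0.00269, ELOVL6 -0.60 ± 0.11, adjusted p = 0.000974, EBP -0.55 ± 0.10, adjusted p = 0.00108 and LSS -0.58 ± 0.14, adjusted p = 0.00653. For MSMO1 the untreated samples ran from 187 to 280 CPM and those at 0.0005 μM were 254 and 275. Of the 22 calls 10 held under all 20 alternatives, and that of TM7SF2 was lost under 11. Without C2 replicate 1 the count was 12, against 7.88% of all. This comparison holds the same samples as those above and is no separate evidence.

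Time in culture was compared in the untreated samples, day 4 against day 2. No member passed the test in the edgeR fit used throughout, where 0.00396% of all genes were called lower and 0.321% higher. Of the 28 genes 10 had fold changes below 0, against 52.7% of all tested genes and 70.9% of the 8914 abundant ones. DESeq2 and the edgeR fit with GC and length offsets each called 1 (HMGCS1, higher), and edgeR without the filter on low counts called 1 (FASN, lower). The mean of C2 was the highest of the 6 conditions for 18 of 28 genes, against 14% of all tested genes, and that of C1 for 9, against 26.4%. HMGCS1 had a log2 fold change of 0.53 ± 0.13, adjusted p = 0.211 and INSIG1 of 0.52 ± 0.18, adjusted p = 0.389 from day 2 to day 4, while FASN had -0.72 ± 0.39, adjusted p = 0.540. Here, leaving out a C1 sample leaves 1 sample on the day 2 side, which is then assumed to vary like the other groups. The C1 samples differed from each other: without C1 replicate 1, INSIG1, SCD, FADS2, DHCR7, LSS and SREBF2 were called higher on day 4 (4.32% of all genes were), and without C1 replicate 2, HSD17B7, MSMO1 and HMGCS1 were called higher (2.02% of all) and SREBF1 and FASN lower (5.01%). At 0.05 μM and at 0.5 μM the mean of all 28 genes was below that of C1, against 51.7% and 49.1% of all tested genes.

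The other genes of sterol and fatty acid handling were listed apart, 38 in all, each of them tested. In treated against untreated samples 11 were called lower, against 11.3% of all tested genes and 21.7% of the abundant ones, and 3 higher, against 13.1% and 3.29%. Of 4 genes for SREBP processing and sensing 2 were called lower, of 17 other synthesis and activation enzymes 8 were, and of 7 genes of fatty acid oxidation 1 was. Of 10 genes of sterol excess, efflux and storage none was called lower and 3 were called higher. The proteases of SREBP processing had -0.52 ± 0.12, adjusted p = 0.00427 for MBTPS1 and -0.51 ± 0.10, adjusted p = 0.00154 for MBTPS2. Their samples ran from 126 to 192 CPM untreated and from 97.2 to 132 treated for MBTPS1, and from 38.9 to 48.3 and from 25.5 to 36.8 for MBTPS2.

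Among the other enzymes the list holds TMEM97, a sterol-regulated membrane protein, which had the lowest log2 fold change of the 38 in treated against untreated samples (-0.91 ± 0.15, adjusted p = 0.000389). The level of TMEM97 was 82.2 and 64 CPM in C1, 67.4 and 62.8 in C2, and then, from the lowest to the highest dose, 42.1 and 55, 37.4 and 32.6, 31.1 and 26.6, and 36.7 and 33. It was called at 0.005 μM (-0.90 ± 0.18, adjusted p = 0.0185), 0.05 μM (-1.17 ± 0.18, adjusted p = 0.00279) and 0.5 μM (-0.90 ± 0.18, adjusted p = 0.0136). The call at 0.05 μM held under all 22 alternatives, that at 0.005 μM was lost without either C2 or either Pac0.005 sample (adjusted p = 0.0678 to 0.182), and that at 0.5 μM without C2 replicate 1 (adjusted p = 0.130) or either Pac0.5 sample. ACSS2, which makes acetyl-CoA from acetate, had 57.2 and 48.9 CPM in C1, 72.7 and 59.6 in C2, and then, from the lowest to the highest dose, 50.9 and 58.1, 45.8 and 43.6, 34.3 and 32.9, and 37 and 33.5. Its change was -0.98 ± 0.15, adjusted p = 0.00302 at 0.05 μM, and its slope on dose was -0.23 ± 0.04, adjusted p = 0.0102. The call at 0.05 μM was lost without C2 replicate 1 (adjusted p = 0.0528) and the slope without either Pac0.0005 sample. PCYT2 (phosphatidylethanolamine synthesis) had -0.60 ± 0.09, adjusted p = 0.000225, SLC25A1 (the mitochondrial citrate carrier) -0.66 ± 0.16, adjusted p = 0.00600, LPIN1 (phosphatidate phosphatase) -0.37 ± 0.10, adjusted p = 0.0165 and ACSL4 (fatty acid activation) -0.41 ± 0.11, adjusted p = 0.0120 in treated against untreated samples. The call of LPIN1 was lost without C2 replicate 1 (adjusted p = 0.0697) and with GC and length offsets (-0.20, adjusted p = 0.0696). ACACB (-0.40 ± 0.13, adjusted p = 0.0366), ELOVL5 (-0.28 ± 0.10, adjusted p = 0.0458) and the oxidation gene ACADM (-0.37 ± 0.11, adjusted p = 0.0208) were also called. ELOVL5 lost its call under 13 of 20 alternatives and ACACB under 7, among them leaving out C1 replicate 1 (-0.25, adjusted p = 0.192) and GC and length offsets (-0.19, adjusted p = 0.110). ACADM lost it under 3, with C2 alone as the control (-0.28, adjusted p = 0.194), without C1 replicate 2 (-0.24, adjusted p = 0.0817) and with the offsets (-0.21, adjusted p = 0.109). Opposite-strand genes overlap 28.3% of the exon bases of PCYT2 (NPB) and 12.3% of those of TMEM97 (IFT20).

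The 3 genes called higher were ABCA1, MYLIP and CH25H. ABCA1, which exports cholesterol from the cell, had 6.56 and 6.44 CPM in C1, 8.09 and 7.19 in C2, and then, from the lowest to the highest dose, 12.7 and 12.4, 13.8 and 13.2, 11.8 and 15.6, and 12.8 and 14.4. All treated samples lay above all untreated ones, the lowest dose included. It was higher at each dose, from 0.71 ± 0.16, adjusted p = 0.0391 at 0.0005 μM to 0.84 ± 0.16, adjusted p = 0.00936 at 0.05 μM, and by 0.91 ± 0.11, adjusted p = 2.26e-05 in treated against untreated samples, with no slope on dose (0.04 ± 0.04, adjusted p = 0.707). MYLIP, a ubiquitin ligase induced by liver X receptors, had 20.9 and 15.8 CPM in C1, 24.9 and 19.4 in C2, and then, from the lowest to the highest dose, 32.4 and 32.1, 27.9 and 28.4, 33.2 and 34.5, and 31.7 and 31.1. It too was above every untreated sample in every treated one (0.63 ± 0.11, adjusted p = 0.000755). CH25H, which makes 25-hydroxycholesterol, was low throughout, from 0.0702 to 0.393 CPM in untreated and from 0.420 to 1.12 in treated samples, and was highest at the lowest dose (1.90 ± 0.36, adjusted p = 0.0162). Its slope on dose was -0.42 ± 0.09, adjusted p = 0.0283, and ABCG1, another exporter, had a slope of -0.25 ± 0.06, adjusted p = 0.0281 with no change in treated against untreated samples called (-0.05 ± 0.20, adjusted p = 0.889). The remaining 6 genes of this list, the liver X receptor genes NR1H2 and NR1H3 among them, were not called in any comparison. The ABCA1 calls against C2 were lost without either C2 sample or without at least 1 sample of the dose, that of CH25H at the lowest dose without C2 replicate 2 or either Pac0.0005 sample, the slopes of CH25H and ABCG1 without any 1 of the samples at 0.0005 or 0.5 μM (that of CH25H also without Pac0.005 replicate 2), and those in treated against untreated samples of ABCA1, MYLIP and CH25H held under all 20 alternatives.

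**Figure D4:**
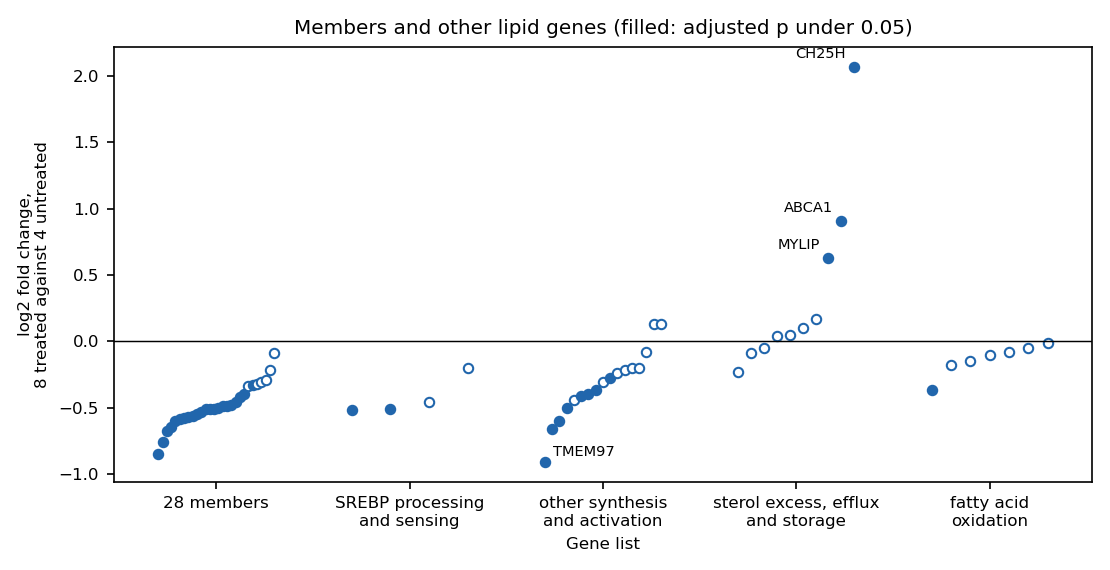
Log2 fold change of 8 treated against 4 untreated samples (vertical axis) for the 28 genes and for 4 lists of other lipid genes (horizontal axis), each point 1 gene, sorted within its list and filled where the adjusted p was under 0.05. All 28 points of the set lie below 0, with a median of -0.50, while ABCA1, MYLIP and CH25H in the list for sterol excess, efflux and storage lie above 0.5.

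Some of these counts could include reads of other genes. The pseudogene HSD17B7P2 held 30.3% as many counts as HSD17B7, and CYP51A1P2 9.26% as many as CYP51A1, and the split of reads between such copies is uncertain. For NSDHL and EBP a row with no symbol held the same counts within 1% in every sample, and whether the same reads were counted there was not tested. The strand setting of the counting is not given in the sources used here, so reads of overlapping genes on opposite strands cannot be told apart. Such overlap took 37.7% of the exon bases of HMGCS1 (ENSG00000261604), 18.6% of FDPS (RUSC1-AS1), 17.2% of ACAT2 (TCP1) and 15.0% of IDI1 (IDI2-AS1). ENSG00000261604 held 0.328% as many counts as HMGCS1, and TCP1 held 273% as many as ACAT2.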

How the data were processed

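RNA of 12 samples was sequenced as paired-end reads. According to the methods and the submitters' processing notes, the authors trimmed reads with Trimmomatic 0.39, checked them with FastQC 0.11.9, aligned them to GRCh37 with STAR 2.7.5 and used Rsubread to count uniquely aligned reads over exons. The deposited values are these whole-number counts, neither normalized nor pooled, and the 12 sample files equal the series table. The counting strand is not given in the sources used here.

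Symbols came from name tables (55665 of 63568 identifiers matched), and exon lengths and overlaps from GENCODE release 44 on GRCh37. Analyses used R 4.3.3, edgeR 4.0.16, limma 3.58.1 and DESeq2 1.42.0. Genes were kept by filterByExpr over the 6 conditions, scaled by TMM and tested two-sided with the robust quasi-likelihood test, with Benjamini-Hochberg adjustment over 25249 genes and a threshold of 0.05. Doses and days were compared in a fit of 6 groups (6 residual degrees of freedom, common biological coefficient of variation 15.6%), the slope in 8 treated samples, and treated against untreated in a fit of 2 groups. CPM use TMM library sizes, those of markers plain totals, and log2 CPM a prior count of 2. A value after ± is a standard error. For 1 gene with 2 samples a group, exact permutation gives p = 0.333 at the least, and counts of samples cover no more than these libraries.

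The 29 genes, the 38 other lipid genes and the marker lists were chosen with earlier results of these data known. Values in every sample are given for members called in at least 1 comparison and for INSIG1, HMGCS1, SQLE, FASN, SCD, SREBF1 and SREBF2, and other pathway genes are named if called in treated against untreated samples or in the slope. The procedures were tested on simulated data. Alternatives were DESeq2, RLE scaling, a block for the replicate number, no filter beyond 1 count, estimation without the robust option, a filter on a mean count under 10, GC and length offsets (88.2% of tested genes had both), other controls, the 4 samples of a comparison alone and leaving out each sample.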

Additional observations from a re-analysis of the deposited data

How the results depend on the processing

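The number of members called moved more than 1.5 times as follows, all of them lower except on the comparison of days. At 0.0005 μM (1 call) it was 2 with GC and length offsets, 0 with both untreated days or with C1 alone as the control (the latter chosen after seeing the data), 5 in the 4 samples alone, and 0 to 5 when single samples were left out. At 0.005 μM (4 calls) it was 11 with DESeq2, 10 without the filter, 8 with the offsets, 10 with both untreated days, 23 in the 4 samples alone, and 0 to 24 without single samples. At 0.05 μM (16 calls) single samples gave 3 to 24 and the other alternatives 14 to 22. At 0.5 μM (10 calls) it was 21 with DESeq2, 19 without the filter, 19 with the offsets, 20 with both untreated days, 25 in the 4 samples alone, and 1 to 25 without single samples. Day 4 against day 2 (0 calls) gave 1 with DESeq2, 1 without the filter, 1 with the offsets and 0 to 6 without single samples. The slope (6 calls) gave 12 with DESeq2, 13 without the filter, 12 with the offsets and 0 to 10. Treated against untreated samples (22 calls) gave 16 to 22, and 12 to 23 without single samples. The share of all genes called lower also moved between these alternatives, from 0.491% to 5.24%, 0.760% to 5.60%, 1.62% to 6.95% and 2.02% to 5.75% over the doses in rising order. At 0.005 μM it was 1.90% with DESeq2, 0.928% without the filter, 1.53% with the offsets and 4.16% with both days. For the slope it was 1.20% to 4.46%, and in treated against untreated samples 4.10% to 13.9%. The cause of these moves was not tested.

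With the replicate number as a block, 18 members were called at 0.5 μM (2.67% of all genes) and the other counts stayed within 1.5 times. The slopes of HMGCS1 and CYP51A1 (adjusted p = 0.0603 and 0.0619) and ELOVL5 in treated against untreated samples (adjusted p = 0.0517) lost their calls under the block. Whether the numbers pair the samples was not settled: deviations of same-numbered samples correlated above 0.1 in 8 of 15 pairs of groups (-0.596 to 0.698). The value was 0.698 for C1 with C2 and 0.627 for C2 with 0.5 μM, but -0.596 for 0.0005 with 0.05 μM. Of 59 called values of single members, tried under 1236 alternative values in all, 1054 kept their call, 182 lost it and 0 changed sign. Without the filter the median of all genes in treated against untreated samples was 0.27, against -0.50 for the members. Depth limits CH25H, at most 1.12 CPM, more than any member.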
